A study of Mus musculus with 36 samples.

Results

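The apolipoprotein genes were followed in mouse kidney across a 2 by 2 design of genotype and treatment. The 9 genes were Apoa1, Apoc3, Apoa4, Apob, Apoe, Apoc1, Apom and Apoh, which encode apolipoproteins, and Mttp, which encodes no apolipoprotein but the transfer protein that loads lipid onto ApoB. They were picked by symbol from the 53715 genes of the count tables. Apoc3 and Apoa4 entered because their responses to streptozotocin ran in opposite directions in the 2 genotypes. Their 4 group levels are therefore given below as a description with no test. Of the contrasts between groups, only the knockout averaged over treatments was tested for these 2 genes. Messenger RNA was sequenced from whole kidneys of 36 mice, 9 per group, 1 library per mouse. The PBS-cKOt and STZ-cKOt mice were Bmal1 lox/lox animals that also carried Pax8-rtTA and LC1, so that doxycycline switched on Cre recombinase in the renal tubule and deleted Bmal1, a transcription activator at the centre of the circadian clock whose gene symbol is Arntl. The PBS-control and STZ-control mice were Bmal1 lox/lox littermates. All 4 groups drank doxycycline at 2 mg/ml for 2 weeks from an age of 8 weeks. The treated groups were injected 1 week later with streptozotocin (STZ), which kills insulin-making beta cells of the pancreas and so brings on diabetes, at 50 mg/kg daily for 5 days. The others received the vehicle, phosphate-buffered saline (PBS). Tissue was collected 8 weeks after injections ended, at zeitgeber time 9, counted in hours from lights on. Recombination was driven through the Pax8 promoter, which is active along the renal tubule, while the RNA came from the whole organ.

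Apolipoproteins are the proteins that carry lipid in blood. ApoB is the scaffold of very low density lipoproteins and chylomicrons, and MTTP fills the growing particle with triglyceride in the endoplasmic reticulum. ApoA-I, ApoA-IV, ApoC-I, ApoC-III and ApoE exchange between particles and set how these are lipolysed and taken up. Liver and intestine make most of them, while kidney proximal tubule makes ApoM and can assemble ApoB particles, and macrophages make ApoE. Several of their genes are known targets of clock-controlled nuclear receptors in liver, the activating ROR and the repressing REV-ERB proteins.

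The libraries held between 16.9 and 22.3 M reads assigned to genes (median 20.1 M), and mitochondrial genes took 12.1% to 25.6% of them. The targeted gene Arntl, counted over all its exons, was higher in the cKOt libraries, at 12.9 to 17.4 counts per M assigned reads (CPM), than in PBS-control, at 1.09 to 2.40 CPM, so the count separates the genotypes but does not show a loss of the transcript. The library labelled STZ-control 2 went against its label, with 13.4 CPM where the other STZ-control libraries reached at most 2.64. A further 4 libraries, STZ-control 7 and 8 and PBS-cKOt 1 and 3, had the lowest slopes of log2 CPM on log2 exon length (each gene taken relative to its own mean). Their slopes lay between −0.17 and −0.0753, so that short genes read high and long genes low, against −0.0605 to 0.0898 in the other 32 libraries. PBS-control and STZ-cKOt held none of the 4, but the next lowest slopes were theirs, PBS-control 3 at −0.0605 and STZ-cKOt 2 at −0.0566. No clear gap in slope thus sets the 4 apart, and leaving them out does not remove the spread in slope. In whole-organ RNA, fewer cells of a type and less RNA per cell cannot be told apart.

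Per kb of exon, the 9 transcripts spanned a wide range of abundance in kidney. Apom stood highest, with a median over the 36 libraries of 40.9 CPM per kb, and Apoe next with 37.7 CPM per kb. These neighbours overlapped: Apom exceeded Apoe in 22 of 36 libraries. Apob followed at 22.7 and Apoh, which encodes the phospholipid-binding beta-2-glycoprotein I, at 11.98 CPM per kb. Apoc3 stood at 6.13, Apoa4 at 3.50 and Mttp at 3.09 CPM per kb, and Apoa4 exceeded Mttp in only 18 of 36 libraries. Apoc1 at 1.00 and Apoa1 at 0.707 CPM per kb were the lowest. Apoh exceeded Apoc3 in 33 of 36 libraries, Apoc3 exceeded Apoa4 in 34 and Mttp exceeded Apoc1 in 35, the clearest steps in the order. By group medians the order differed in places: Apoe stood first in STZ-control, Apob above Apoe in STZ-cKOt, Mttp above Apoc3 and Apoa4 in PBS-control and above Apoa4 in STZ-cKOt, and Apoa1 above Apoc1 in PBS-cKOt. Apoa1 rested on 8 to 52 reads per library, Apoc3 on 54 to 250 and Apoa4 on 56 to 217. All 9 genes passed the filter on low counts, which kept 15637 genes for testing.

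**Figure D1:**
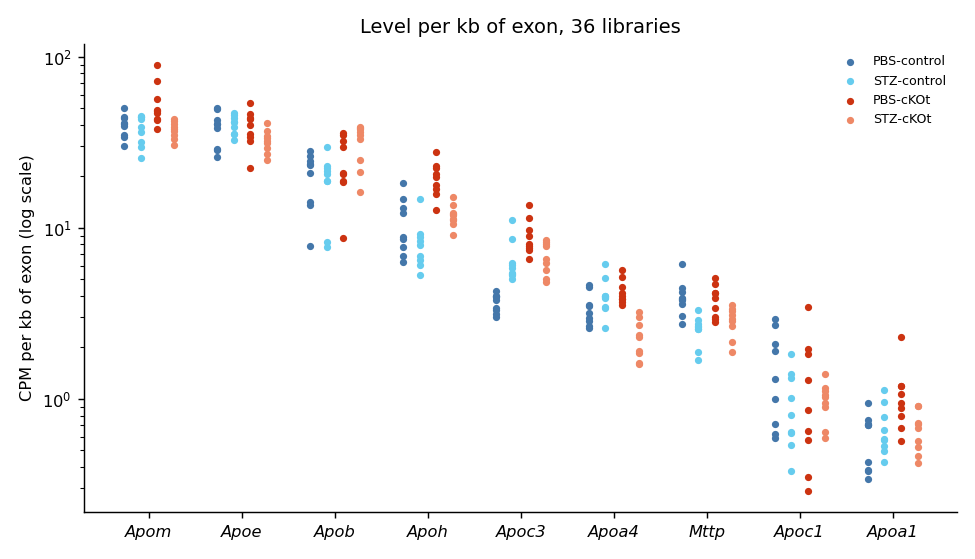
Level of each gene in CPM per kb of exon (log axis); each point is 1 library, coloured by group, with genes in order of their median over 36 libraries. Apom and Apoe overlap at the top with medians of 40.9 and 37.7 CPM per kb, and Apoa1 is lowest with 0.707.

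Several defining markers of the organs that make most apolipoproteins were near or at 0. Of 10 hepatocyte markers, Ahsg, Cps1 and Tat each averaged under 0.1 CPM. Of the rest, Ttr averaged 140 CPM, Itih2 12.4, Alb 5.43, Itih1 4.02, Serpinc1 1.43, Fabp1 0.372 and Hpx 0.295. The sum over the hepatocyte list ran from 122 to 209 CPM in PBS-control, from 108 to 194 in STZ-control, then 128 to 221 in PBS-cKOt and 121 to 223 in STZ-cKOt, most of it Ttr. Of the 6 hepatocyte markers tested for the knockout averaged over treatments, 3 were lower, among them the albumin gene Alb at −2.37 ± 0.21 on the log2 scale (± SE; edgeR adjusted p = 6.46e-12), and 1 was higher, Itih1 at 0.36 (adjusted p = 0.0117). Of all tested genes 17.1% were lower and 15.3% higher in that contrast, so the 1 is near the background. In STZ mice alone Ttr was higher in the knockout, by 0.46 (edgeR adjusted p = 0.0335). The part of these markers in the values of the 9 genes was not tested. Of 10 enterocyte markers 7 averaged under 0.1 CPM, and Alpi and Cdx2 had no read in any library. The rest of that list, Vil1, Dgat2 and Slc5a1, is also made by proximal tubule.

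Promoter sequence is shown for Apoh and Apob, 2 of the 3 genes that were higher in the knockout averaged over treatments, and for Apoa4, which was not. Each is the 250 bases before the start site in RefSeq (GRCm38.p6), plus strand, 5′ to 3′: Apoh at chr11:108395047-108395296, Apob at chr12:7977427-7977676 and Apoa4 at chr9:46240594-46240843. In the gene annotation used here (GENCODE M21), the span of Apoh begins at 108343354, so its window lies inside that span. The Apob and Apoa4 windows run past the annotated starts at 7977648 and 46240696. RefSeq promoters were matched for 7 of the 9 genes. No entry for Apoc3 or Apoc1 was matched. Capitals mark TGACCTA, which is the ROR and REV-ERB motif TAGGTCA read on the other strand.
Apoh: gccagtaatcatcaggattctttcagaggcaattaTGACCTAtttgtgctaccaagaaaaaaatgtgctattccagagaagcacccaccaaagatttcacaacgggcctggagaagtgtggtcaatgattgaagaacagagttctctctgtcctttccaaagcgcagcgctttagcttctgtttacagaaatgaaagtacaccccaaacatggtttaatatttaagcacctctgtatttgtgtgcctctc
Apob: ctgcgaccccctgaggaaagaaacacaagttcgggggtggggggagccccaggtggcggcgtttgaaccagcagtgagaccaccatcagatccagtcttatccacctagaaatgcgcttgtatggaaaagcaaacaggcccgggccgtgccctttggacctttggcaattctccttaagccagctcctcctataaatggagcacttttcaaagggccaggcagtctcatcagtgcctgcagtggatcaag
Apoa4: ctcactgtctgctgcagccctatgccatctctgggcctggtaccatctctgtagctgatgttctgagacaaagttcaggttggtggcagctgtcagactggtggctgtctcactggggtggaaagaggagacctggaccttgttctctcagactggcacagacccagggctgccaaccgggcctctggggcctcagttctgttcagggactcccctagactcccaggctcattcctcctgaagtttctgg
In Apoh the match lay from −215 to −209 relative to the start, on the minus strand, and it contains the shorter nuclear receptor motif AGGTCA, so the 2 matches are 1 stretch. No other match of these motifs, of the E-box CACGTG or of the HNF4 core AAGTCCA was found on either strand in the windows of the 7 genes. Of 32851 promoters of the same length, 2.23% held TAGGTCA, 14.02% AGGTCA, 6.02% CACGTG and 3.36% AAGTCCA. A match describes letters in a window and is not evidence of binding.

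Apoa1, Apoc3 and Apoa4 sit side by side within 14.9 kb of chromosome 9 (GRCm38). Apoa1 (ENSMUSG00000032083), the main protein of high density lipoprotein, lies at 46228580 to 46230466 on the plus strand. Apoc3 (ENSMUSG00000032081), an inhibitor of lipoprotein lipase and of particle uptake, lies 2466 bases away at 46232933 to 46235636 on the minus strand. Apoa4 (ENSMUSG00000032080), a lipid-induced protein of chylomicrons and high density lipoprotein, lies at 46240696 to 46243459 on the plus strand.

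Apoc3 stood at 3.07, 3.84 and 4.33 CPM in PBS-control (lowest, median and highest of 9 libraries). In STZ-control these values were 5.11, 5.88 and 11.4 CPM. In PBS-cKOt they were 6.69, 8.18 and 13.7, and in STZ-cKOt 4.89, 6.65 and 8.56. Each of the 9 STZ-control libraries and each of the 9 PBS-cKOt libraries lay above every PBS-control library. Such a gap upward was seen in 0.742% of tested genes for STZ-control and in 2.40% for PBS-cKOt, and since these group levels chose the gene nothing is read from it. The STZ-cKOt libraries, at 4.89 CPM or more, overlapped STZ-control and PBS-cKOt and lay above PBS-control too. On the log2 scale Apoc3 differed by 0.83 ± 0.15 between STZ and PBS in control mice and by −0.41 ± 0.14 in cKOt mice (± SE), a difference between the STZ effects of −1.24 ± 0.21. The 4 libraries with low slopes held the 2 highest Apoc3 values of STZ-control and of PBS-cKOt. Without them the remaining STZ-control libraries lay between 5.11 and 6.30 CPM and the remaining PBS-cKOt libraries between 6.69 and 9.88. All of them still lay above PBS-control, and the difference between the STZ effects was −0.87.

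Apoa4 stood at 4.70, 5.78 and 8.43 CPM in PBS-control (lowest, median and highest). In STZ-control it stood at 4.72, 7.12 and 11.2 CPM. In PBS-cKOt it stood at 6.39, 7.24 and 10.3 CPM, and in STZ-cKOt at 2.91, 4.20 and 5.86. The STZ-cKOt libraries were the low ones: all 9 lay below every PBS-cKOt library, a gap downward seen in 0.422% of tested genes. Against STZ-control, 6 of the 9 lay below every library, and the STZ-cKOt range overlapped those of STZ-control and PBS-control. The other 3 groups overlapped each other. On the log2 scale the STZ effect on Apoa4 was 0.26 ± 0.14 in control mice but −0.90 ± 0.15 in cKOt mice. The difference between both was −1.15 ± 0.21 (± SE). For comparison of scale, 0.0448% of tested genes (7 genes) passed the threshold for that difference, all downward. Apoc3 and Apoa4 were picked for it and are not counted as support.

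The ratio of Apoc3 to Apoa4 within a library ordered the 4 groups. Its lowest, median and highest values were 0.471, 0.636 and 0.705 in PBS-control, and 0.743, 0.871 and 1.22 in STZ-control. They were 0.924, 1.10 and 1.68 in PBS-cKOt and 1.40, 1.68 and 1.95 in STZ-cKOt. Within each treatment the genotypes did not overlap, and within each genotype the treatments overlapped only in cKOt. The ratio is a description, since the same group levels chose both genes.

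**Figure D2:**
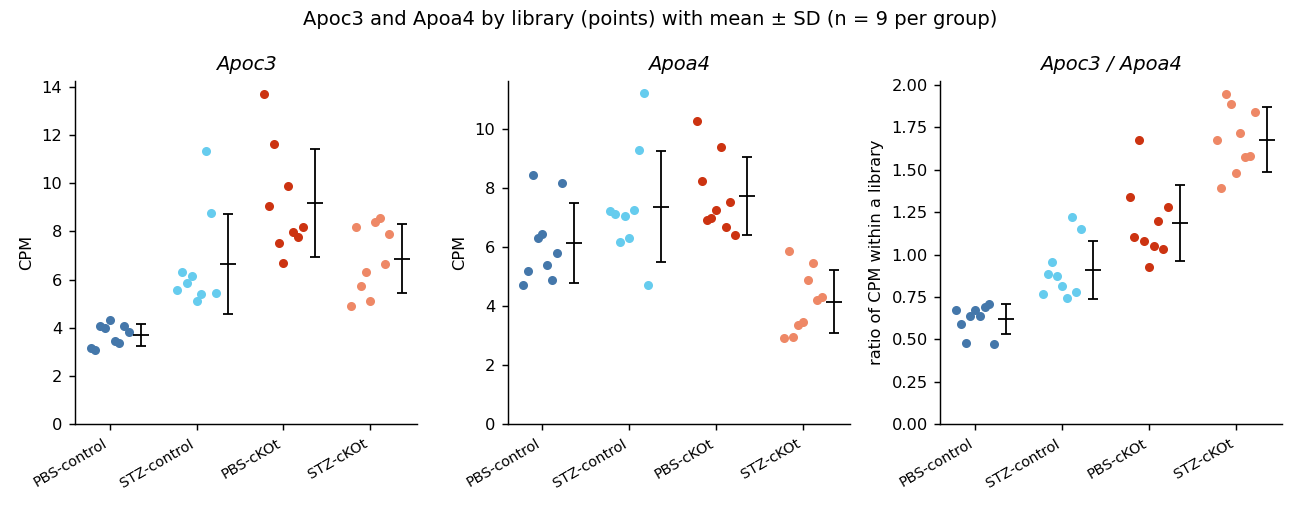
CPM of Apoc3 and Apoa4 and their ratio within a library, by group; points are libraries, with the mean and SD of 9 beside them. Apoc3 is lowest in PBS-control (at most 4.33 CPM), Apoa4 is lowest in STZ-cKOt (at most 5.86 CPM), and the ratio is higher in cKOt than in control within each treatment.

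The knockout averaged over treatments is orthogonal by design to the STZ effects that chose Apoc3 and Apoa4, and it was tested for all 9. In that contrast 32.4% of tested genes passed an adjusted p of 0.05, 15.3% higher and 17.1% lower. Of the 9 genes 3 passed, Apoc3, Apob and Apoh, all higher. The count was 5 with library sizes without mitochondrial genes, 6 with the length slope as a covariate and 7 by voom, settings in which 36.8%, 40.6% and 38.5% of tested genes passed. Apoa1 and Apom were gained as higher in each of these. Apoa4 was gained as lower in the latter 2 and Apoe, at −0.20, as lower by voom. Apoa1 also passed as higher without STZ-control 2, without the 4 low-slope libraries and without all of these (edgeR adjusted p = 0.0442, 0.0264 and 0.00893). Apom also passed as higher with the replicate block (edgeR adjusted p = 0.0330). The median change of the 9 genes was 0.22 on the log2 scale, against 0.00 over all tested genes. Apoc3 rose by 0.68 ± 0.10 (1.60-fold; edgeR adjusted p = 1.50e-06), although in STZ mice alone its difference was 0.06 ± 0.14. Apoa4 stood −0.24 ± 0.10 from control (adjusted p = 0.0656) and did not pass, with a value of 0.33 in PBS mice and −0.82 in STZ mice. It passed with the same sign by voom with quality weights, with the length slope as a covariate and without PBS-cKOt 1 (adjusted p = 0.0196, 0.0114 and 0.0369).

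The other 7 genes were tested in every contrast. In PBS mice 3 of 7 passed for the knockout, all higher, where 23.4% of all tested genes passed and 10.9% were higher. In STZ mice 2 of 7 passed, both higher, against 19.6% and 9.52% of all tested genes. Without the 4 low-slope libraries both of these calls were lost and Apoe was called as lower, and without these and STZ-control 2 the count was 0. Of all tested genes 20.2% and 18.4% passed in these settings. STZ lowered 1 of 7 in control mice, where 12.3% of tested genes passed and 5.93% were lower. In cKOt mice it lowered 4 of 7, against 11.6% and 5.63% of tested genes. That count was 2 with library sizes without mitochondrial genes and 2 with no filter on low counts, where 13.9% and 4.47% of tested genes passed. With 7 genes these counts are not tested against the background, and 1 of 7 is near it. For the difference between the STZ effects 0 of 7 passed by edgeR, DESeq2 or voom, and 2 of 7, Apoa1 and Apom, had an unadjusted p under 0.05 in edgeR. A call in one genotype and not in the other is therefore not shown to differ between genotypes for any of these 7. The contrasts share groups, so their counts are not independent of each other.

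**Figure D3:**
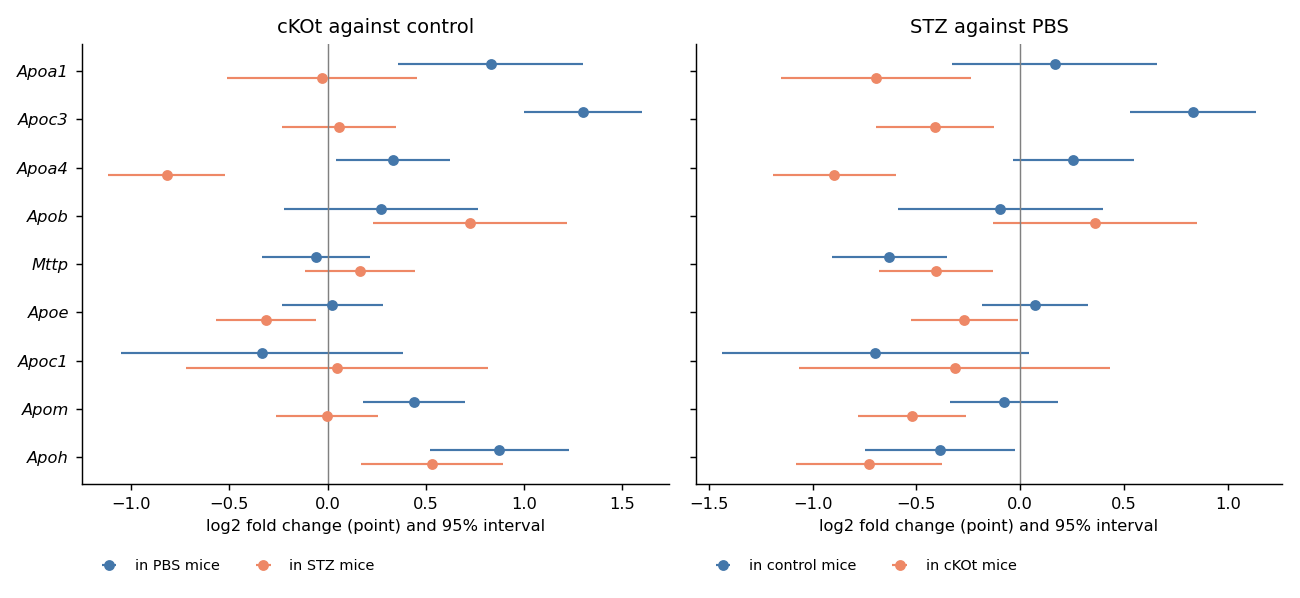
Log2 fold change and its 95% interval for the 9 genes, cKOt against control in each treatment (left) and STZ against PBS in each genotype (right). Apoh lies above 0 in both knockout contrasts and Mttp below 0 in both STZ contrasts; Apoc3 and Apoa4 were chosen on these values and are shown as a description.

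Apoa1 stood at 0.423, 0.872 and 1.17 CPM in PBS-control (lowest, median and highest), 0.529, 0.719 and 1.39 in STZ-control, then 0.704, 1.17 and 2.85 in PBS-cKOt and 0.522, 0.832 and 1.13 in STZ-cKOt. PBS-cKOt was the high group, with 7 of its 9 libraries above the PBS-control median, and all groups overlapped. In PBS mice the knockout raised Apoa1 by 0.83 ± 0.23 (1.78-fold; edgeR adjusted p = 0.00736). In cKOt mice STZ lowered it by −0.69 ± 0.23 (adjusted p = 0.0391). The latter call rested on PBS-cKOt 1, the library with the 2.85 CPM: without it the change was −0.48 and the adjusted p 0.132. The call held in 4 of 12 other settings. Of the 3 neighbouring genes, Apoa1 had the lowest counts, and its 95% interval in STZ mice ran from −0.51 to 0.45.

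Apob (ENSMUSG00000020609, chromosome 12, 7977648 to 8016835, plus strand) has the longest transcript of the 9, with 13934 exon bases. It stood at 110, 325 and 395 CPM in PBS-control (lowest, median and highest), 108, 286 and 415 in STZ-control, then 121, 290 and 499 in PBS-cKOt and 227, 490 and 545 in STZ-cKOt. The low ends of the first 3 groups were PBS-control 3, STZ-control 7 and 8 and PBS-cKOt 3. The latter 3 are among the 4 low-slope libraries, and PBS-control 3 had the next lowest slope (−0.0605). STZ-cKOt was the high group: 6 of its 9 libraries exceeded every STZ-control library. In STZ mice Apob was higher in cKOt by 0.73 ± 0.24 (1.65-fold; edgeR adjusted p = 0.0305). Without the 4 low-slope libraries the value was 0.51 with an adjusted p of 0.0717. In PBS mice the difference was 0.27 and did not pass, but with the length slope as a covariate it was 0.51 and passed (adjusted p = 0.0244). Averaged over treatments the knockout raised it by 0.50 ± 0.17 (adjusted p = 0.0232).

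Mttp (ENSMUSG00000028158, chromosome 3, 138089854 to 138144968, minus strand) was the gene that STZ lowered in both genotypes. It stood at 16.9, 23.7 and 38.1 CPM in PBS-control (lowest, median and highest), 10.4, 16.3 and 20.5 in STZ-control, then 17.6, 24.1 and 31.7 in PBS-cKOt and 11.7, 18.2 and 21.8 in STZ-cKOt. All 9 libraries of each STZ group lay below the median of the PBS group of their genotype, and the ranges overlapped. The change was −0.63 ± 0.14 in control mice (edgeR adjusted p = 0.00180) and −0.41 ± 0.14 in cKOt mice (adjusted p = 0.0449). The latter was lost with library sizes that leave out mitochondrial genes and with no filter on low counts (adjusted p = 0.0798 and 0.0703). Under the former the median of all tested genes shifted to 0.06 for STZ against PBS in cKOt mice, and Mttp stood there at −0.35. In controls the median shifted to 0.11 and Mttp stood at −0.53. The knockout averaged over treatments gave 0.05 with a 95% interval from −0.14 to 0.25. Summed proximal tubule markers also had lower medians with STZ. These were 24091 CPM in PBS-control, 19849 in STZ-control, then 22068 in PBS-cKOt and 19005 in STZ-cKOt. Between genotypes the sum was lower in cKOt in each treatment, while the Mttp median was not. STZ lowered 5 of the 12 markers in control and 6 of 12 in cKOt mice, against 5.93% and 5.63% of all tested genes. Their part in the result was not tested. Trmt10a overlaps Mttp on the opposite strand, from 138143448 to 138144968. Its mean of 160.8 reads is for the whole of Trmt10a. Reads in more than 1 gene were left out. As no strand option of the counting is given, how reads of the overlap were assigned is not known.

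The 4 genes with the closest link to the length slope were Apoc3, Apoa4, Apob and Mttp. Over 36 libraries, after subtracting each group's mean, Apoc3 correlated with the slope at Pearson r = −0.827 and Spearman rho = −0.725 (permutation p = 1e-05 for each, the smallest that 100000 permutations give; adjusted over 9 genes 3e-05). Without the 2 libraries of the most extreme slopes r was −0.734. Apoa4 gave r = −0.680 and rho = −0.629 (permutation p = 2e-05 and 7e-05; adjusted 4.5e-05 and 0.000158; r = −0.651 without those 2). Apob gave r = 0.777 and rho = 0.820, and Mttp r = 0.778 and rho = 0.853 (permutation p = 1e-05, adjusted 3e-05 for each; r = 0.851 and 0.836 without those 2). Apoa1 gave r = −0.541 and rho = −0.449 (permutation p = 0.00226 and 0.00933, adjusted 0.00407 and 0.0168), but r was −0.298 without those 2 libraries, so that relation rests on them. Apoe, Apoc1, Apom and Apoh gave adjusted p from 0.0732 to 0.624 for r. Within groups, libraries with a lower slope thus held more Apoc3 and Apoa4 (1014 and 1815 exon bases) and less Apob and Mttp (13934 and 6206). Other short transcripts were linked less closely. Apom and Apoc1, at 1013 and 744 exon bases, gave r = −0.380 and −0.349 (permutation p adjusted over 9 genes 0.0732 and 0.0865). Apoh at 1594 exon bases gave −0.224, so length does not by itself order these genes. The median slope of a group ranged from 0.0055 in STZ-cKOt to 0.0122 in STZ-control. The part of the slope in the group differences was addressed only by the settings with the slope as a covariate or without the 4 libraries.

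**Figure D4:**
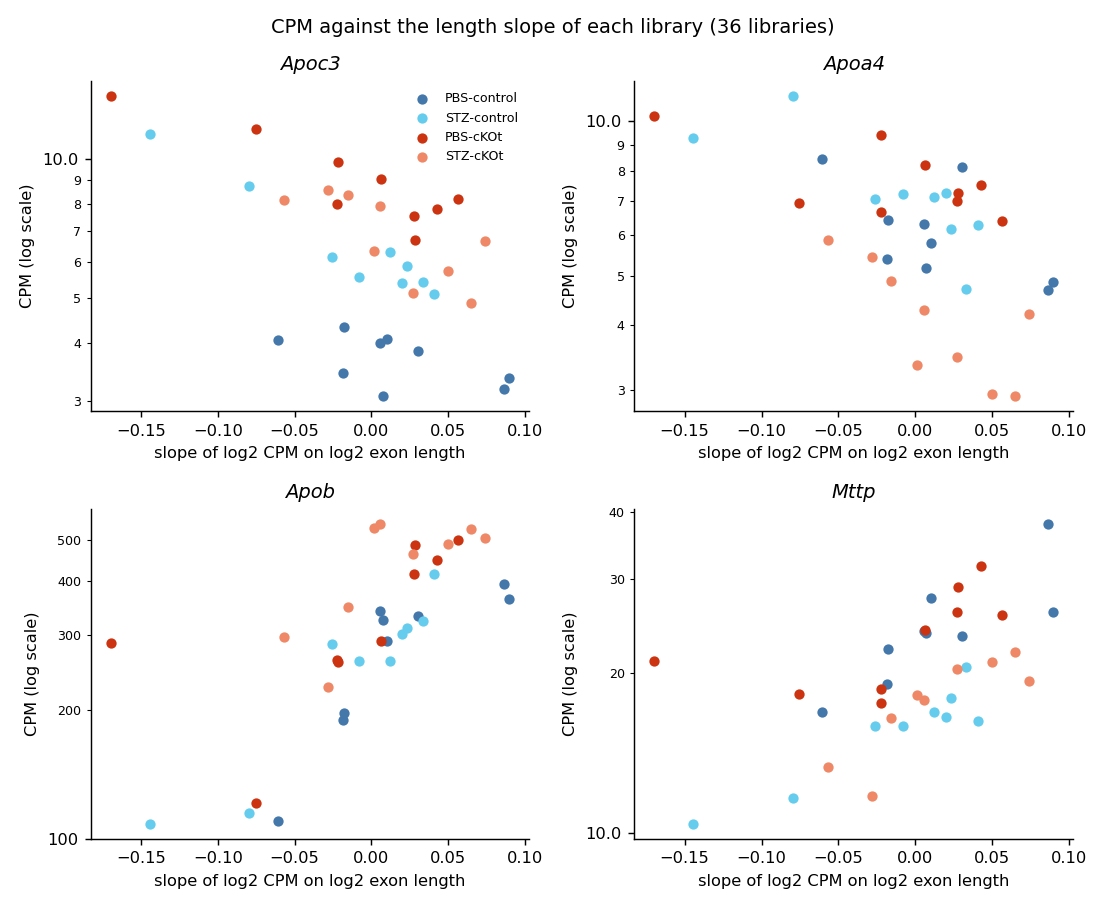
CPM (log axis) of Apoc3, Apoa4, Apob and Mttp against the slope of log2 CPM on log2 exon length, 1 point per library, coloured by group. Apoc3 and Apoa4 fall and Apob and Mttp climb with the slope (within-group r of −0.827, −0.680, 0.777 and 0.778), and PBS-control stays lowest in Apoc3 at each slope it covers.

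Pairs of the 9 genes were compared in the same way, 36 pairs in all, but the 2 libraries left out were chosen otherwise. For each pair they were the 2 furthest from the median in the gene named first, after subtracting group means. They are not the 2 libraries of extreme slope and can differ between pairs. Apob and Mttp, partners in particle assembly that lie on different chromosomes, had the highest correlation (r = 0.843, rho = 0.777; permutation p = 1e-05, adjusted over 36 pairs 0.00012; r = 0.841 without the 2 extreme libraries), and r was 0.603 once the slope was also removed. The neighbours Apoc3 and Apoa4 came next (r = 0.742, rho = 0.732; permutation p = 1e-05, adjusted 0.00012; r = 0.730 without 2), falling to 0.437 once the slope was removed. Some pairs that did not pass before removal then stood as high or higher. They were Apob with Apoe at 0.52, Mttp with Apom at 0.461, Apoe with Apoc1 at 0.4575 and Apoe with Apom at 0.440. The values with the slope removed were not tested. Apoa1 with Apoc3 gave r = 0.528 and rho = 0.493 (permutation p = 0.00141 and 0.00261, adjusted 0.00725 and 0.0117), but 0.327 without 2 libraries and 0.171 once the slope was removed. Apoa1 with Apoa4 gave r = 0.487 and rho = 0.529 (permutation p = 0.00236 and 0.00145, adjusted 0.0106 and 0.00746), with 0.394 without 2 libraries and 0.194 once the slope was removed. The 4 negative pairs that passed joined Apoc3 or Apoa4 to Apob or Mttp. Apoc3 with Apob gave r = −0.717 and rho = −0.660 (permutation p = 4e-05 and 2e-05, adjusted 0.000288 and 0.000144), and Apoc3 with Mttp r = −0.692 and rho = −0.716 (permutation p = 1e-05, adjusted 0.00012 for each). Apoa4 with Mttp gave r = −0.689 and rho = −0.684 (permutation p = 2e-05, adjusted 0.00018 and 0.000144), and Apoa4 with Apob r = −0.601 and rho = −0.587 (permutation p = 0.00022 and 0.0002, adjusted 0.00132 and 0.0012). With the 2 libraries extreme in the first-named gene left out, these 4 values of r were −0.712, −0.672, −0.642 and −0.545. Once the slope was removed they were −0.209, −0.139, −0.348 and −0.158. Within groups, libraries high in Apoc3 were thus high in Apoa4, while the group means of the 2 genes were ordered differently.

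Apom (ENSMUSG00000024391, chromosome 17, 35128997 to 35132050, minus strand) encodes the carrier of sphingosine 1-phosphate on high density lipoprotein. It stood at 30.5, 41.1 and 50.7 CPM in PBS-control (lowest, median and highest), 25.9, 39.5 and 45.9 in STZ-control, then 38.2, 48.8 and 90.4 in PBS-cKOt and 31.0, 38.5 and 43.8 in STZ-cKOt. PBS-cKOt was again the high group, with 8 of 9 libraries above the PBS-control median. The knockout raised Apom in PBS mice by 0.44 ± 0.13 (1.35-fold; edgeR adjusted p = 0.0103), and in STZ mice the 95% interval ran from −0.26 to 0.26. STZ lowered it in cKOt mice by −0.52 ± 0.13 (adjusted p = 0.00536), where all 9 STZ-cKOt libraries lay below the PBS-cKOt median. In control mice the interval ran from −0.34 to 0.18.

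Apoh (ENSMUSG00000000049, chromosome 11, 108343354 to 108414396, plus strand) was higher in the knockout under both treatments. It stood at 10.1, 14.02 and 29.0 CPM in PBS-control (lowest, median and highest), 8.47, 12.6 and 23.6 in STZ-control, then 20.2, 31.5 and 44.1 in PBS-cKOt and 14.5, 19.0 and 24.1 in STZ-cKOt. All 9 cKOt libraries of each treatment lay above the control median, with overlap of the ranges through a few high control libraries. The knockout effect was 0.87 ± 0.17 in PBS mice (1.83-fold; edgeR adjusted p = 0.000214) and 0.53 ± 0.18 in STZ mice (adjusted p = 0.0298). The latter was 0.49 with an adjusted p of 0.0743 without the 4 low-slope libraries, and 0.48 with 0.0518 by voom. Averaged over treatments it was 0.70 ± 0.12 (adjusted p = 2.18e-05). STZ lowered Apoh in cKOt mice by −0.73 ± 0.17 (adjusted p = 0.00416), with 7 of 9 libraries below every PBS-cKOt library, and stood at −0.39 ± 0.18 in control mice (adjusted p = 0.157). Prkca overlaps the annotated span of Apoh on the opposite strand, from 108343354 to 108343928. Its mean of 574.4 reads is for the whole of Prkca. Reads in more than 1 gene were left out, and how reads of the overlap were assigned is not known.

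Apoe (ENSMUSG00000002985, chromosome 7, 19696109 to 19699188, minus strand), the ligand of lipoprotein receptors, passed no test in the fit to all 36 libraries. It stood at 55.9, 86.2 and 107 CPM in PBS-control (lowest, median and highest), 69.4, 88.7 and 100 in STZ-control, then 47.6, 85.0 and 115 in PBS-cKOt and 53.0, 69.3 and 87.5 in STZ-cKOt. All groups overlapped. All 9 STZ-cKOt libraries lay below the STZ-control median, a difference of −0.31 ± 0.13 with an edgeR adjusted p of 0.0765. It passed by voom, without the 4 low-slope libraries and in a fit to those 2 groups alone (adjusted p = 0.0224, 0.0373 and 0.0174). Macrophage markers were lower in the same contrast, 6 of 8, where 10.1% of tested genes were lower. In the knockout averaged over treatments 8 of 8 were lower, against 17.1% of tested genes. Their summed level ran from 211 to 306 CPM in PBS-control, from 228 to 385 in STZ-control, then 172 to 228 in PBS-cKOt and 193 to 230 in STZ-cKOt, with no marker at 0. Their part in the Apoe values was not tested.

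Apoc1 (ENSMUSG00000040564, chromosome 7, 19689481 to 19692660, minus strand), the neighbour of Apoe 3448 bases away and an inhibitor of lipoprotein uptake, had the highest coefficient of variation of the 9 genes in 3 groups, 58.6% in PBS-control, 50.4% in STZ-control and 82.1% in PBS-cKOt. In STZ-cKOt it was 25.8%, below the 27.3% of Apoa1. It stood at 0.438, 0.974 and 2.18 CPM in PBS-control (lowest, median and highest), 0.282, 0.597 and 1.36 in STZ-control, then 0.217, 0.640 and 2.58 in PBS-cKOt and 0.442, 0.768 and 1.05 in STZ-cKOt. It passed no test. Its 95% interval for the knockout in PBS mice ran from −1.05 to 0.38 and in STZ mice from −0.72 to 0.82. Changes within these bounds are compatible with the data.

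**Figure D5:**
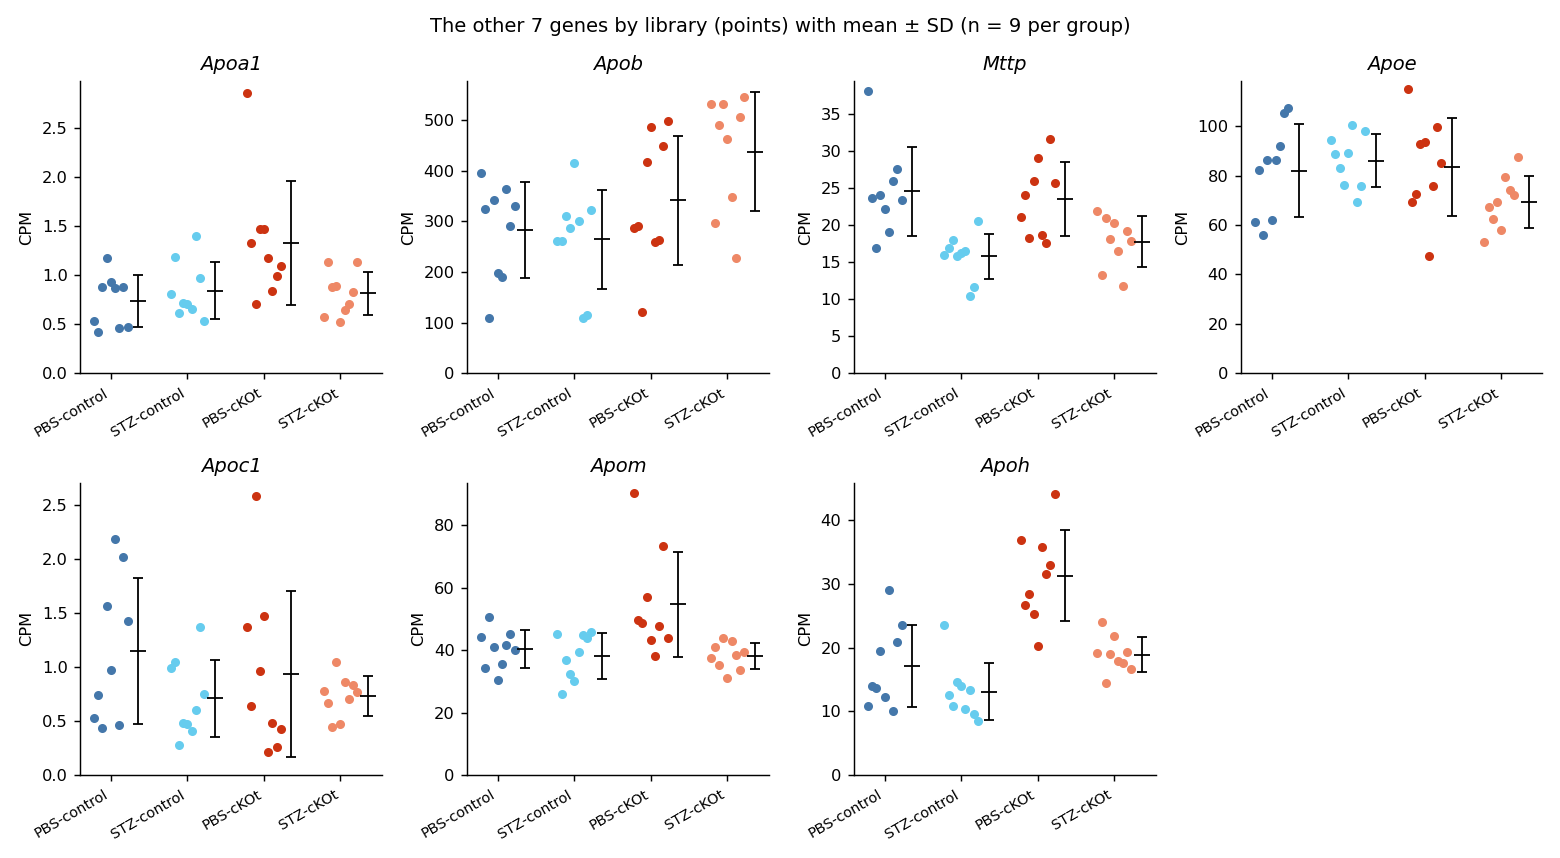
CPM of the other 7 genes by group; points are libraries, with the mean and SD of 9 beside them. Apoh is highest in PBS-cKOt (20.2 to 44.1 CPM), Mttp is lower in both STZ groups, and Apoc1 and Apoa1 lie mostly under 2 CPM.

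Of 20 further apolipoprotein and carrier genes, 7 were tested. For the knockout averaged over treatments 1 of the 7 passed, where 32.4% of all tested genes passed, so the count is not above the background. It was Apoa2, a structural protein of high density lipoprotein, with a rise of 0.60 ± 0.11 (edgeR adjusted p = 4.40e-05). Voom called 4 of the 7, where 38.5% of all tested genes passed. Apoa2 ranged over 3.41 to 5.26 CPM in PBS-control, from 3.83 to 5.71 in STZ-control, then 3.53 to 9.93 in PBS-cKOt and 5.27 to 13.5 in STZ-cKOt. The knockout value was 0.40 in PBS mice (adjusted p = 0.0685) and 0.80 in STZ mice (adjusted p = 0.000144), and STZ raised Apoa2 in cKOt mice by 0.64 (adjusted p = 0.00427). STZ raised 3 of the 7 in control mice, where 6.34% of tested genes were higher, among them Clu, which encodes the carrier and chaperone ApoJ, by 0.77 ± 0.12 (adjusted p = 2.45e-05). Apol9b rose by 1.10 ± 0.16 (adjusted p = 1.08e-05), but it is nearly identical to Apol9a, so its reads are uncertain. The median of the list was −0.25 in the knockout contrast and 0.24 in the STZ contrast, against 0.00 over all tested genes in both.

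Of 22 tested genes of particle assembly, triglyceride synthesis and lipid droplets, the knockout averaged over treatments lowered 9 and raised 1 (median −0.12), where 17.1% of all tested genes were lower and 15.3% higher. Dgat2, which makes triglyceride, fell by 0.55 on the log2 scale (± 0.05; edgeR adjusted p = 1.93e-11). Mogat2 and Mogat1, which make diacylglycerol, fell, with changes of −1.04 and −0.49 (adjusted p = 3.03e-08 and 9.32e-08). Soat1, which esterifies cholesterol, rose by 0.32 (adjusted p = 6.39e-09). STZ lowered 5 of the 22 in control mice, against 5.93% of all tested genes. By voom 2 were called and with the length slope as a covariate 8, where 12% and 15.9% of all tested genes passed. The droplet genes Cidea and Cidec led the 5, at −3.76 and −2.47 (adjusted p = 0.00179 and 0.00674; by voom Cidec had 0.0592). Fat tissue markers were lower in the same contrast, 5 of 7 (background as above, 5.93%), with a summed level of 64.7 to 352 CPM in PBS-control and 61.4 to 92.8 CPM in STZ-control, then 48.2 to 153 in PBS-cKOt and 64.4 to 103 in STZ-cKOt. Cidec is itself on that marker list, and the part of fat tissue was not tested.

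Of 13 tested lipases and lipid transfer genes, the knockout averaged over treatments lowered 4 and raised 1 (median −0.08). Of all tested genes 17.1% were lower and 15.3% higher, so the 1 is not above the background. Angptl4, an inhibitor of lipoprotein lipase, the lysosomal lipase gene Lipa and the cholesterol exporter Abcg1 fell, with changes of −0.52, −0.30 and −0.29 (edgeR adjusted p = 0.00817, 0.00700 and 0.00618). Of 18 receptor genes, 6 fell and 2 rose (median −0.05), where 17.1% of all tested genes were lower and 15.3% higher, so the 2 are near the background. Among those that fell were the scavenger receptor Cd36 at −0.66 and the ApoE receptor Lrp8 at −0.85 (adjusted p = 1.70e-09 and 2.77e-06). The sorting receptor Sort1 rose by 0.24 (adjusted p = 0.000934). In control mice STZ lowered 3 of the 18, against 5.93% of all tested genes, among them Vldlr at −0.27 and Cd36 at −0.39 (adjusted p = 0.00240 and 0.0103). Without the 4 low-slope libraries 1 of the 18 was called, and Cd36 stood at −0.29 with an adjusted p of 0.0713. With the length slope as a covariate 5 were called. Of all tested genes 9.38% and 15.9% passed in these settings.

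Of 28 tested regulators of apolipoprotein genes, the knockout averaged over treatments raised 5 and lowered 11 (median −0.13). Of all tested genes 15.3% were higher and 17.1% lower, so the 5 are near the background. The REV-ERB repressors fell, with changes of −2.02 for Nr1d2 and −1.498 for Nr1d1 (edgeR adjusted p = 6.35e-24 and 8.88e-14). Ppard, a fatty acid receptor, rose by 2.69 ± 0.09 (adjusted p = 1.11e-24). In control mice STZ lowered 4 of the 28, against 5.93% of all tested genes, among them Rora at −0.36 and Pparg at −0.74 (adjusted p = 0.00505 and 0.00959).

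The genes whose log2 CPM over 36 libraries was most like that of Apoc3, among 12631 genes with a mean of at least 2 CPM, were Sfn (r = 0.858), S100a11 (0.854), Hoxb9 (0.851), Spire2 (0.846) and Foxi1 (0.835). Those most like Apoa4 were BC035947 (r = 0.815), Mlycd (0.785), Klk1 (0.784), Fancd2os (0.768) and Mbd3 (0.768). The libraries share groups and length slopes, and the values are descriptions. With group means subtracted the r values were 0.679 to 0.804 for the first 5 and 0.602 to 0.754 for the others. The 9 genes themselves were left out of the search.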

How the data were processed

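Poly(A) RNA of 36 whole kidneys was measured. The groups came from the sample titles, and each library is taken as 1 of the 9 animals per group that the design names. The deposited values are counts of reads per gene, made by the authors. Tools were cutadapt 1.8, STAR 2.5.3a and HTSeq 0.9.1 on GRCm38, per the submitters' processing notes. Strand option and annotation release: not given in the sources used here. Entries that name no gene were left out: per library 30.9% to 42.8% of reads were not uniquely mapped, 3.64% to 6.38% lay in no gene and 0.582% to 0.738% in more than 1. Symbols and positions came from GENCODE M21, in which 53620 of 53715 gene IDs matched.

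The test was that of edgeR 4.0.16 under R 4.3.3 (TMM scaling, filterByExpr, 1 mean per group over 36 libraries, 32 residual degrees of freedom, quasi-likelihood F test), with p adjusted by Benjamini and Hochberg's method over the 15637 tested genes of each of 6 contrasts and a threshold of 0.05. CPM uses the TMM library sizes. Counting error limits genes of few reads. Correlations are of log2(CPM + 0.1), with 100000 permutations within groups, two-sided. The test was checked on simulated data.

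The members, lists and tests were chosen with earlier results of these data known. Named are the 9 genes, Arntl, up to 4 genes per pathway list with the smallest adjusted p in the knockout contrast averaged over treatments and 2 in the STZ contrast of control mice, and 5 genes most like Apoc3 and Apoa4. Some genes that this rule names are not reported here. Alternatives were DESeq2 size factors, DESeq2 1.42.0, voom with quality weights in limma 3.58.1, library sizes without mitochondrial genes, 2 other filters, a replicate block, only the groups of a contrast, and leaving out STZ-control 2 or the 4 low-slope libraries. The length slope as a covariate, leaving out those 4 and STZ-control 2 together, and leaving out PBS-cKOt 1 were chosen after seeing the data.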

Additional observations from a re-analysis of the deposited data

Results flagged for a closer look

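In 40 sets of 9 libraries (each of the 9 genes and Arntl in each group), the highest or lowest library was compared with its nearest neighbour, and chance alone marks about 1 in 20 such sets. PBS-cKOt 1 held 2.85 CPM of Apoa1, far above the next library of its group at 1.47. PBS-control 1 held 38.1 CPM of Mttp, where the next held 27.6. STZ-control 1 held 23.6 CPM of Apoh, where the next held 14.6. The library labelled STZ-control 2 held 13.4 CPM of Arntl, where the next STZ-control library held 2.64.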

How the results depend on the processing

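Over 10 planned and 3 added settings, the calls of Apoa1, Apom and Apoh (knockout, PBS mice), Mttp (STZ, control mice), Apom and Apoh (STZ, cKOt mice) and Apoc3, Apob and Apoh (knockout averaged over treatments) kept their direction and their side of the threshold wherever a value was computed. There were 14 cases without one, among them Apoa1 under the filter at a mean of 1 CPM. Apoa1 rested on as few as 8 reads per library. With the length slope as covariate Apob passed for the knockout in PBS mice. The count of genes passing for the knockout in STZ mice went from 2 to 1 without the 4 low-slope libraries. Apob and Apoh were lost and Apoe was gained. It went to 0 without these and STZ-control 2. Of all tested genes 20.2% and 18.4% passed in these settings, against 19.6% in the main fit. The count for STZ in cKOt mice went from 4 to 2 both with library sizes without mitochondrial genes and with no filter. There 13.9% and 4.47% of tested genes passed, against 11.6% in the main fit. The count for the knockout averaged over treatments went from 3 to 5 with library sizes without mitochondrial genes. It was 7 by voom and 6 with the length slope as covariate. In these settings 36.8%, 38.5% and 40.6% of tested genes passed, against 32.4% in the main fit. The causes were not tested. Replicate numbers did not pair the libraries (correlations of same-numbered libraries −0.247 to 0.396, and at most 3 of 9 matched best with their own number). With the replicate block the counts were 3, 2, 1 and 3 for the knockout in PBS and STZ mice and STZ in control and cKOt mice, 0 for the interaction and 4 for the knockout averaged over treatments. In the same order 23.9%, 20%, 13%, 12.2%, 0.032% and 32.5% of all tested genes passed.

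The sign changed for values that passed in no setting. With library sizes without mitochondrial genes these were, on the log2 scale, Mttp for the knockout in PBS mice (0.0195), Apoa1 and Apom for the knockout in STZ mice (0.00734 and 0.0311), and Apob and Apom for STZ in control mice (0.000788 and 0.0259). By voom they were Mttp and Apoe for the knockout in PBS mice (0.00643 and −0.0463), Apoa1 and Apom for the knockout in STZ mice (0.0478 and 0.0287), Apob for STZ in control mice (0.0328) and Apoc1 for STZ in cKOt mice (0.0572). Apom for the knockout in STZ mice was 0.00743 with no filter and 0.0156 with the replicate block, and Apoa1 was 0.0508 without STZ-control 2. Without the 4 low-slope libraries the values were Mttp 0.0172 and Apoe −0.0173 (knockout, PBS mice), Apoa1 0.127 and Apom 0.0654 (knockout, STZ mice), Apob 0.134 (STZ, control mice) and Apoc1 0.203 (STZ, cKOt mice). Without STZ-control 2 as well they were Mttp 0.0173, Apoe −0.0172, Apoa1 0.275, Apoa1 for STZ in control mice −0.125, Apob 0.171 and Apoc1 0.203. With the length slope as covariate they were Mttp 0.0679 (knockout, PBS mice), Apoa1 0.109 and Apom 0.0490 (knockout, STZ mice), Apob 0.0808 (STZ, control mice) and Mttp −0.00905 (interaction). Without PBS-cKOt 1, Apoe was −0.0458 (knockout, PBS mice).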

Other observations

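Markers of other kidney cells were counted beside the apolipoprotein genes. For the knockout averaged over treatments, 1 of 12 proximal tubule markers was higher and 6 lower, and 3 of 8 thick limb, distal and collecting duct markers were higher and 2 lower, where 15.3% of all tested genes were higher and 17.1% lower. The 6 endothelial markers summed to between 260.5 and 416 CPM in PBS-control and between 184 and 389 CPM in PBS-cKOt, and STZ raised 2 of them in cKOt mice, where 6.00% of all tested genes were higher. The 6 podocyte markers summed to between 185 and 350 CPM in PBS-control and between 257 and 385 CPM in STZ-cKOt, and STZ raised 1 of them in cKOt mice.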
